A study of Mus musculus with 6 samples.

Results

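The genes that encode SR proteins, hnRNP proteins and their partners were examined in AE9a leukemia cells from 2 regions of mouse bone marrow. The members were the protein-coding genes whose names start with Srsf or Hnrnp, together with the kinases Clk1 to Clk4, Srpk1 and Srpk2, the splicing activators Tra2a and Tra2b, and the cold-inducible RNA-binding genes Cirbp and Rbm3. This gave 41 of the 54532 genes in the count table, and 40 of them had enough reads to be tested among the 13352 genes tested in all. The member not tested was Srsf12, an SR-related gene, with counts of 1, 2 and 0 in central marrow and 0, 3 and 0 in endosteal marrow.

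The series holds 6 RNA-seq libraries of AE9a leukemia cells on the C57BL/6 background, with 3 from central bone marrow (CBM), flushed from femurs and tibias, and 3 from endosteal bone marrow (EBM), released from the flushed bones by collagenase I. AE9a is AML1-ETO9a, a short splice form of the fusion protein made by the t(8;21) translocation of acute myeloid leukemia, and both groups carried it. It was brought by a retrovirus with a GFP mark into c-Kit+ stem and progenitor cells, and per the study's methods the sequenced cells came from the third round of transplanted mice. The labels give no age, and they add that cells were kept in IMDM with serum before and after sorting. Digestion at body temperature was a step of the EBM preparation only, so the effect of the region and that of the preparation cannot be told apart. The labels do not say that the libraries of a group came from separate mice, and p-values then measure only the spread between libraries, which may be technical.

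SR proteins bind exonic enhancers in pre-mRNA and recruit the spliceosome, the machine that removes introns. Many hnRNP proteins coat the same transcripts and oppose that choice, so the balance of both families shapes which exons are kept. SRPK kinases phosphorylate SR proteins in the cytoplasm and direct them to the nucleus, where CLK kinases phosphorylate them further and release them from nuclear speckles. CLK1 and CLK4 are more active in mild cold than in warmth, and cold raises CIRBP and RBM3, RNA-binding proteins made when temperature drops. Mutations in SRSF2 and in core spliceosome genes are found in human myeloid leukemia.

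Counts on genes ran from 16436526 to 19462964 per library, and 3 counts correspond to between 0.154 and 0.183 CPM, a count scaled to library size, a limit that covers counting error only. CPM values below are normalized by the trimmed mean of M-values (TMM), which scales libraries to a common composition. Marker sums cover all matched genes of a list, tested or not. They are scaled to total counts before filtering, so their scale differs slightly from that of single-gene CPM. Of 7 blast markers 6 were tested, and all 7 summed to 1308, 901 and 1041 CPM in CBM 1 to 3. In EBM 1 to 3 the sums were 1187, 1101 and 947 CPM. Kit, the receptor that marks these blasts, stood between 196 and 239 CPM, but Runx1 ranged from 330 to 722 CPM, Mpo from 1.65 to 35.8 CPM and Cd34 from 1.16 to 16.4 CPM. The osteoblast and stroma markers summed to between 7.94 and 13.1 CPM, with 1 of 14 tested and Bglap2, Sp7 and Alpl at 0 counts in every library. Most of each sum was the tested gene, Runx2, which made 11.8 of the 13.1 CPM in CBM 2. Granulocyte markers, of which 8 of 10 were tested, summed to between 3.42 and 237 CPM in CBM and between 35.6 and 166 CPM in EBM. Erythroid markers, with 9 of 9 matched genes tested, summed to between 2545 and 8076 CPM in CBM and between 3081 and 6301 CPM in EBM. Macrophage and monocyte markers (3 of 10 tested) reached at most 16.3 CPM, lymphoid markers (3 of 10) 16.5 CPM and endothelial markers (3 of 7) 69.0 CPM. Of the endothelial 69.0 CPM, in CBM 2, Eng alone made 65.7 CPM. The first principal component held 53.0% of the variance over genes and did not order the libraries by region, and the second lay below 0 in the 3 CBM libraries and above 0 in the 3 EBM libraries. In bulk samples, fewer cells of a type and less RNA per cell cannot be told apart.

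None of the 40 members passed the adjusted threshold between EBM and CBM. With edgeR's quasi-likelihood F-test and Benjamini-Hochberg adjustment at 0.05 over all genes, 0 of 40 members were called, beside 0.00% of all genes tested, and the smallest adjusted p of a member was 0.540. At an unadjusted p under 0.05, 1 member was higher in EBM, Hnrnpc, beside a background of 4.01% of all genes, and 1 was lower, Hnrnpll, beside 3.90%. The shares of members, 1 of 40 in each direction, were thus no larger than the background. DESeq2 and limma-voom also called 0 members after adjustment, and at an unadjusted p under 0.05 each gave 2 members higher and 1 lower.

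The members split evenly around no difference. The estimated log2 fold change of EBM over CBM was above 0 for 18 members and below 0 for 22, with a median of -0.0056 where all genes had a median of 0.0017. It was within 0.1 of 0 for 25 members and beyond 0.3 for 3, which were Clk1, Hnrnpc and Hnrnpll. The precision was better than for most genes. The median standard error (SE) was 0.111 for members and 0.184 for all genes, and the median SD of log2 CPM within a group was 0.121 for members and 0.222 for all genes. For 36 of 40 members (90.0%) the whole 95% interval lay within 0.5 of 0 on the log2 scale, a difference of 1.41-fold, while 38.1% of all genes had such an interval. The exceptions were Clk1, Cirbp, Hnrnpc and Hnrnpll. Such narrow intervals were not particular to the members. They held for 92.0% of the core spliceosome genes and 84.9% of the other splicing regulators described below. The shares were not matched for expression level.

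**Figure D1:**
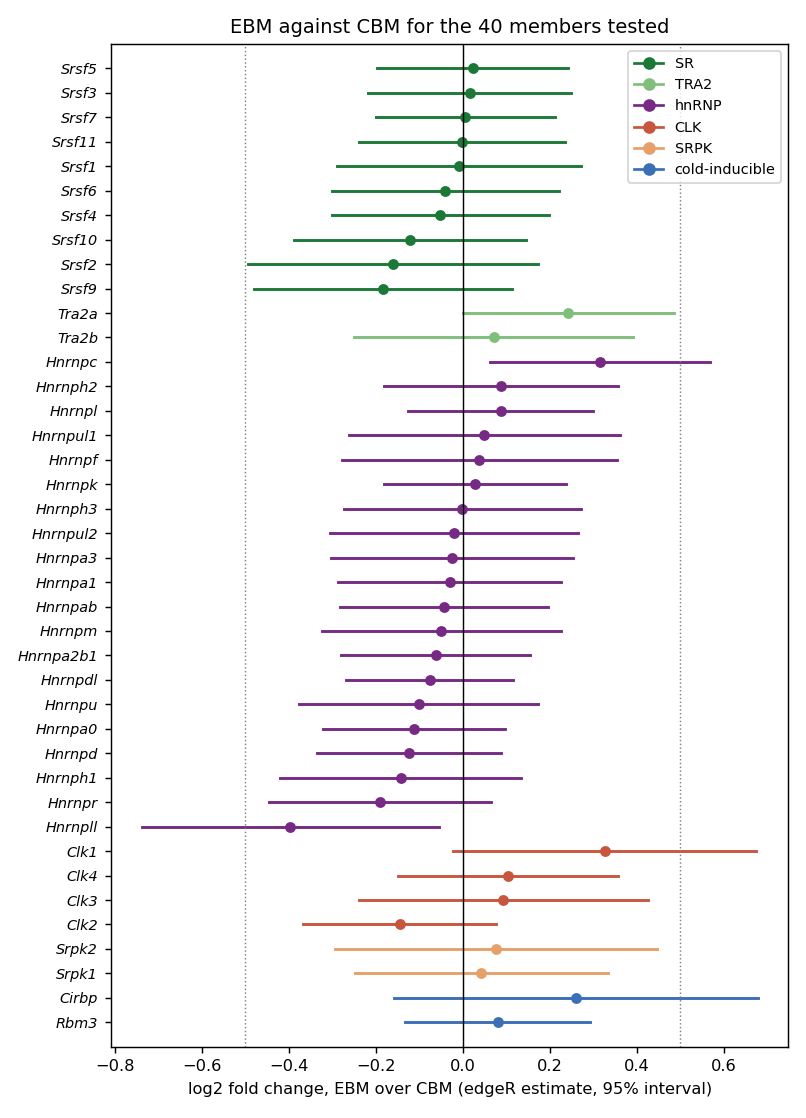
Log2 fold change of EBM over CBM for each of the 40 tested members, grouped by role, with points for the edgeR estimate and lines for its 95% interval (n = 3 libraries per region, dotted lines at 0.5 on either side of 0). The intervals of 38 members cross 0, and those of Hnrnpc and Hnrnpll do not.

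The 4 genes known to respond to temperature were set out by library. Cirbp (chr10:80165985-80172786, plus strand, GRCm38) encodes a glycine-rich RNA-binding protein of the cold response and measured 93.5, 87.7 and 68.9 CPM in CBM 1 to 3 and 116, 104 and 79.5 CPM in EBM 1 to 3. Its lowest EBM library lay below the 2 higher CBM libraries, so the groups overlapped. The log2 fold change was 0.26 ± 0.18 (SE, n = 3 per group), with a 95% interval from -0.16 to 0.68 and an edgeR adjusted p of 0.797. Within a group the libraries of Cirbp differed by about as much as the groups did, with a within-group SD of 0.257 on the log2 scale, the largest of the 40 members.

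Rbm3 (chrX:8138975-8145880, minus strand), the other cold-inducible gene, was the more abundant of the pair and the steadier. It measured 576, 528 and 549 CPM in CBM and 579, 614 and 554 CPM in EBM. The libraries overlapped, and the log2 fold change was 0.08 ± 0.09 (SE), with a 95% interval from -0.13 to 0.29 and an edgeR adjusted p of 0.924. Per kilobase of gene length, Rbm3 stood at 117 CPM per kb in CBM and 124 in EBM, and Cirbp at 32.0 and 38.3.

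The kinase gene Clk1 (chr1:58410189-58424066, minus strand) measured 341, 448 and 340 CPM in CBM and 427, 528 and 461 CPM in EBM. CBM 2 lay above EBM 1, and the other CBM libraries lay below all 3 EBM libraries. The log2 fold change was 0.33 ± 0.15 (SE), the largest upward estimate among the members, with a 95% interval from -0.02 to 0.68, an unadjusted p of 0.0625 and an edgeR adjusted p of 0.656. Clk4 (chr11:51261730-51281766, plus strand), its close relative, measured 94.0, 114 and 95.4 CPM in CBM and 112, 111 and 103 CPM in EBM. Here the highest library of all was CBM 2, and the log2 fold change was 0.10 ± 0.11 (SE) with an edgeR adjusted p of 0.911. In exact permutation tests of log2 CPM, with 3 libraries against 3 and 0.1 as the smallest two-sided p possible, p was 0.3 for Cirbp, 0.2 for Rbm3, 0.2 for Clk1 and 0.4 for Clk4. The direction was EBM over CBM for each of the 4 genes in the main fit and in all 15 alternatives run, and none passed the adjusted threshold in any of them.

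**Figure D2:**
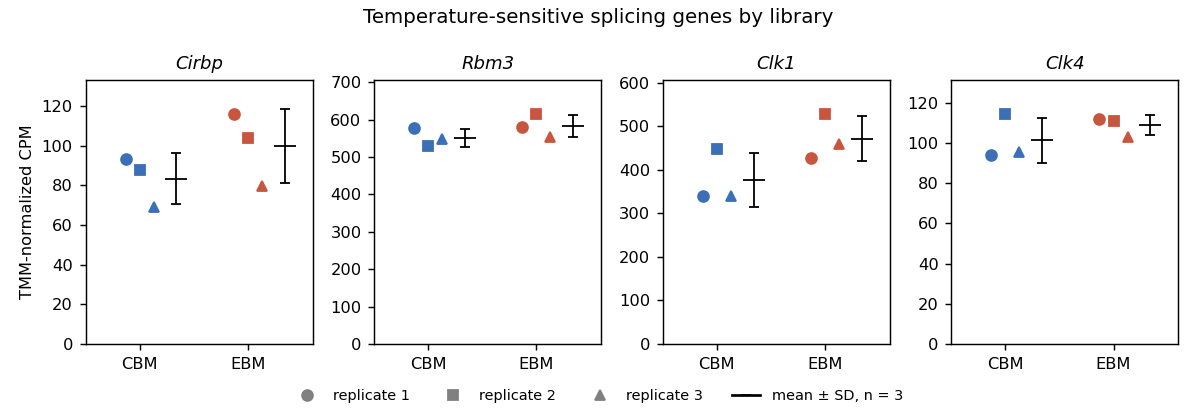
TMM-normalized CPM of Cirbp, Rbm3, Clk1 and Clk4 in each library of CBM (blue) and EBM (red), with the marker shape giving the replicate number and the bar the mean ± SD of 3 libraries. The libraries of CBM and EBM overlap for each gene.

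The genes of the heat shock response, which warmth and other stress induce, stand beside these values. All 16 of the heat shock genes tested had an estimate above 0 in the main fit and 14 to 16 of them in the alternatives, with a median log2 fold change of 0.24, and none passed the adjusted threshold in edgeR. The Hsp70 genes Hspa1a and Hspa1b are near-identical copies, and how the counting divided reads between them was not tested. Hspa1a had 2 counts in each CBM library and 53, 50 and 22 counts in EBM, and Hspa1b had 167, 71 and 68 counts in CBM and 2033, 904 and 912 in EBM. Their edgeR adjusted p-values were 0.108 and 0.121, with no overlap between the groups. Hsph1, a cofactor of Hsp70, had a log2 fold change of 0.55 ± 0.36 (SE) and Dnajb1, another, of 0.35 ± 0.15. For both of these cofactors the groups overlapped. Hsph1 measured 59.2, 52.4 and 76.5 CPM in CBM and 56.2, 71.1 and 148 CPM in EBM, so only EBM 3 lay above every CBM library. The log2 fold change of Hspa1b was 3.74 ± 0.52 (SE), where those of Cirbp, Rbm3, Clk1 and Clk4 were between 0.08 and 0.33. Whether the difference in handling took part in any of these values was not tested.

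Promoter sequences from RefSeq (build GRCm38.p6, 250 bases before to 50 after a start) were on hand for 37 of the 41 members, in 52 windows. None was on hand for Rbm3, Clk1, Hnrnpll and Hnrnpul2, so these genes were not searched. Windows of the temperature-sensitive genes Cirbp and Clk4 are shown because digestion at body temperature was a step of the EBM preparation only. No temperature is given for the CBM preparation. The mild-cold element TCCCCGCC, described upstream of Cirbp, was searched on both strands. It was found in 4 of the 52 windows, which belonged to Cirbp, Hnrnpa0, Hnrnpf and Srsf7. The share over the 32851 mouse promoters of the same length was 5.38%. The first Cirbp window, chr10:80167589-80167888 on the plus strand, holds the match, in capitals, and the Clk4 window, chr11:51262864-51263163 on the plus strand, holds none. The second Cirbp window, which is not shown, holds none either.
Cirbp: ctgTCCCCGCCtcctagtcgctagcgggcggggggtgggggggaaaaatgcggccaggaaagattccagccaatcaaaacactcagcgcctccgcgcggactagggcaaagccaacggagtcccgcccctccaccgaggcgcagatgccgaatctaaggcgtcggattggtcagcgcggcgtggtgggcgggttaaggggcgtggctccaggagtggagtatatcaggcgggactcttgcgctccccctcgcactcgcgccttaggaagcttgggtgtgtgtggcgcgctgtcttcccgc
Clk4: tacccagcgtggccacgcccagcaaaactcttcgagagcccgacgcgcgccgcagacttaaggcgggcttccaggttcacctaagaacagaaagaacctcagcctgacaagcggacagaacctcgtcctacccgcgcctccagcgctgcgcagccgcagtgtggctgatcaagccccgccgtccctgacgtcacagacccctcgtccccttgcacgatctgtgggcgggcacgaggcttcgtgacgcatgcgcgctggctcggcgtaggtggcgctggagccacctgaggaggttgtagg
The paired binding units of heat shock factor, GAANNTTC and TTCNNGAA, were in 7.86% and 8.52% of all promoters. Either of them was in 6 of the 52 windows, from 5 members. The share of all promoters with either was not counted. Neither was in the windows shown. A match describes the letters only, and no match says nothing of binding.

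The CLK and SRPK kinases outside the temperature-sensitive pair showed small estimates of both signs. Clk2 measured 96.1, 82.9 and 85.1 CPM in CBM and 82.0, 79.8 and 77.0 CPM in EBM. Its groups did not overlap, but the closest libraries stood at 82.9 CPM (CBM 2) and 82.0 CPM (EBM 1), and the log2 fold change was -0.15 ± 0.09 (SE; edgeR adjusted p 0.776). Clk3 measured 108, 151 and 118 CPM in CBM and 126, 134 and 142 CPM in EBM, with CBM 2 the highest of all, and a log2 fold change of 0.09 ± 0.14 (SE). The 2 SRPK genes were close to level. Srpk1 measured 200, 155 and 190 CPM in CBM and 197, 192 and 173 CPM in EBM, a log2 fold change of 0.04 ± 0.12 (SE). Srpk2, the least abundant tested member per length at 1.97 CPM per kb in CBM and 2.07 in EBM, measured 29.1, 25.2 and 27.7 CPM in CBM and 31.3, 32.1 and 23.1 CPM in EBM. Its log2 fold change was 0.08 ± 0.16 (SE). Srpk2 shares 972 exon bases with Kmt2e on the opposite strand, and Kmt2e drew 16927 counts over the 6 libraries where Srpk2 drew 3050. The libraries were directional, but whether the counting used strand is not stated, so the values of Srpk2 are uncertain. The same limit holds for Clk3, which shares 1284 exon bases with Edc3 on the opposite strand. Edc3 drew 6303 counts where Clk3 drew 14022.

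Tra2a and Tra2b encode SR-like activators that bind purine-rich enhancers. Tra2a measured 151, 180 and 161 CPM in CBM and 184, 206 and 192 CPM in EBM. Every EBM library lay above every CBM library, and the log2 fold change was 0.24 ± 0.10 (SE), with an unadjusted p of 0.0501 and an edgeR adjusted p of 0.632. Tra2b measured 246, 306 and 297 CPM in CBM and 263, 291 and 338 CPM in EBM, which overlapped, with a log2 fold change of 0.07 ± 0.13 (SE). Whether the responses of the pair differed was not tested.

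The 10 SR protein genes tested showed small estimates. All 10 had 95% intervals within 0.5 of 0 on the log2 scale, all 10 overlapped between regions, and the median log2 fold change was -0.025, with 3 estimates above 0 and 7 below. The direction of this group depended on the scaling and on the libraries: 0 of 10 were above 0 with upper quartile factors and 7 of 10 without CBM 2. The estimates furthest below 0 by p-value were those of Srsf9, Srsf2 and Srsf10. Srsf9, a small SR protein, measured 55.6, 47.5 and 59.7 CPM in CBM and 52.4, 44.0 and 46.8 CPM in EBM (log2 fold change -0.18 ± 0.12, SE). Srsf2, which activates exons and is mutated in myeloid neoplasms, measured 452, 543 and 545 CPM in CBM and 397, 449 and 533 CPM in EBM (-0.16 ± 0.14, SE). Srsf10, which represses splicing when dephosphorylated after heat shock, measured 172, 205 and 212 CPM in CBM and 167, 190 and 184 CPM in EBM (-0.12 ± 0.11, SE). For each of these the groups overlapped, and their edgeR adjusted p-values were 0.796 or higher.

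The 3 SR genes with an estimate above 0 were Srsf5, Srsf3 and Srsf7, all at 0.02 or less. Srsf5, the most abundant SR gene per length at 244 CPM per kb in CBM and 248 in EBM, measured 944, 1057 and 920 CPM in CBM and 981, 990 and 995 CPM in EBM, a log2 fold change of 0.02 ± 0.09 (SE). Srsf3, which also aids mRNA export, measured 523, 573 and 582 CPM in CBM and 526, 563 and 608 CPM in EBM, a log2 fold change of 0.02 ± 0.10 (SE). Srsf7, likewise a shuttling SR protein, measured 354, 361 and 356 CPM in CBM and 366, 336 and 374 CPM in EBM, a log2 fold change of 0.01 ± 0.09 (SE). The 3 CBM libraries of Srsf7 lay between 354 and 361 CPM, a narrower range than in EBM. Srsf1, Srsf4, Srsf6 and Srsf11, the remaining SR genes, had log2 fold changes between -0.05 and -0.0017. Srsf2 shares 460 exon bases with Mettl23 and Srsf4 shares 1532 with Gm12992 on the opposite strand, but Mettl23 drew 3575 counts beside 52780 for Srsf2 and Gm12992 drew 183 beside 6570 for Srsf4.

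Among the 20 hnRNP genes tested, 6 had an estimate above 0 and 14 below, with a median log2 fold change of -0.037. This median stayed below 0 in all 15 alternatives, between -0.086 and -0.0084, but without EBM 1 the genes split 10 and 10. Hnrnpc, which binds uridine tracts and blocks cryptic exons, lies at chr14:52073377-52104028 on the minus strand and measured 376, 424 and 403 CPM in CBM and 466, 476 and 554 CPM in EBM. All EBM libraries lay above all CBM libraries. The log2 fold change was 0.32 ± 0.11 (SE), with a 95% interval from 0.06 to 0.57, an unadjusted p of 0.0218 and an edgeR adjusted p of 0.540. Hnrnpll, which controls the exons of the CD45 transcript in lymphocytes, lies at chr17:80029487-80062334 on the minus strand and measured 85.8, 119 and 99.7 CPM in CBM and 69.3, 77.4 and 84.6 CPM in EBM. All EBM libraries lay below all CBM libraries, although EBM 3 at 84.6 CPM and CBM 1 at 85.8 CPM were close. Its log2 fold change was -0.40 ± 0.14 (SE), with a 95% interval from -0.74 to -0.05, an unadjusted p of 0.0289 and an edgeR adjusted p of 0.560.

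The next hnRNP genes by p-value had groups that overlapped. Hnrnpr measured 176, 209 and 185 CPM in CBM and 153, 179 and 168 CPM in EBM (log2 fold change -0.19 ± 0.11, SE). Hnrnpd, or AUF1, which binds AU-rich elements and speeds mRNA decay, measured 288, 324 and 309 CPM in CBM and 274, 292 and 279 CPM in EBM (-0.12 ± 0.09, SE). On the higher side, Hnrnpl, a binder of CA repeats, measured 445, 450 and 438 CPM in CBM and 508, 449 and 459 CPM in EBM (0.09 ± 0.09, SE). Hnrnph2, a binder of G runs, measured 141, 176 and 151 CPM in CBM and 155, 165 and 177 CPM in EBM (0.09 ± 0.11, SE).

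Hnrnpa1, which antagonizes SR proteins at many exons, was the most abundant member per length, at 444 CPM per kb in CBM and 435 in EBM. It measured 1286, 1560 and 1358 CPM in CBM and 1294, 1396 and 1428 CPM in EBM, a log2 fold change of -0.03 ± 0.11 (SE). Its relative Hnrnpa2b1 followed at 262 and 251 CPM per kb, ahead of Srsf5. Hnrnpa0 measured 671, 646 and 662 CPM in CBM and 642, 574 and 614 CPM in EBM, with no overlap and a log2 fold change of -0.11 ± 0.09 (SE; edgeR adjusted p 0.846). Hnrnpdl, which regulates its own splicing, measured 363, 383 and 361 CPM in CBM and 353, 351 and 348 CPM in EBM, also with no overlap. Its groups stood close, at a log2 fold change of -0.08 ± 0.08 (SE; edgeR adjusted p 0.918), and its within-group SD of 0.033 was the smallest of the members. The other hnRNP genes, Hnrnpa3, Hnrnpab, Hnrnpf, Hnrnph1, Hnrnph3, Hnrnpk, Hnrnpm, Hnrnpu, Hnrnpul1 and Hnrnpul2, had log2 fold changes between -0.14 and 0.05 with overlap between the regions.

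In all, 2 members (Hnrnpc and Tra2a) had every EBM library above every CBM library, beside a background of 7.47% of all genes, and 4 (Clk2, Hnrnpa0, Hnrnpdl and Hnrnpll) had every EBM library below, beside 7.65%. The shares of members were 5.0% and 10.0%, and the other 34 overlapped. With upper quartile factors 6 members lay below, the added ones being Hnrnpd and Hnrnpr, and 2 lay above. With no scaling beyond library size 7 members lay below, Srsf7 being added to these, and 1 above, Hnrnpc, while Tra2a overlapped. The promoters of Hnrnpc, chr14:52103972-52104271 on the minus strand, and Tra2a, chr6:49264003-49264302 on the minus strand, are shown since these members were separated upward, and neither holds TCCCCGCC, GAANNTTC or TTCNNGAA.
Hnrnpc: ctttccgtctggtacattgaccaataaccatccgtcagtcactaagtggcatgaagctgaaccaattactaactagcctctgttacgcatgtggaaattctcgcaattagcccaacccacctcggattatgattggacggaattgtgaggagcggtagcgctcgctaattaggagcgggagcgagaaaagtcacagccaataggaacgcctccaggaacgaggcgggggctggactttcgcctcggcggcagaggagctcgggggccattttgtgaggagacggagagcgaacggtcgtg
Tra2a: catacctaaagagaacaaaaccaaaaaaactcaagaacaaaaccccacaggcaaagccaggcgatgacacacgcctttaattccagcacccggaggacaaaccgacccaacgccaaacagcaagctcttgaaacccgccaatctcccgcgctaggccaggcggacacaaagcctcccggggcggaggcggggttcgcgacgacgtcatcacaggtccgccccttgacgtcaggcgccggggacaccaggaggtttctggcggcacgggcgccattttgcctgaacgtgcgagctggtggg

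**Figure D3:**
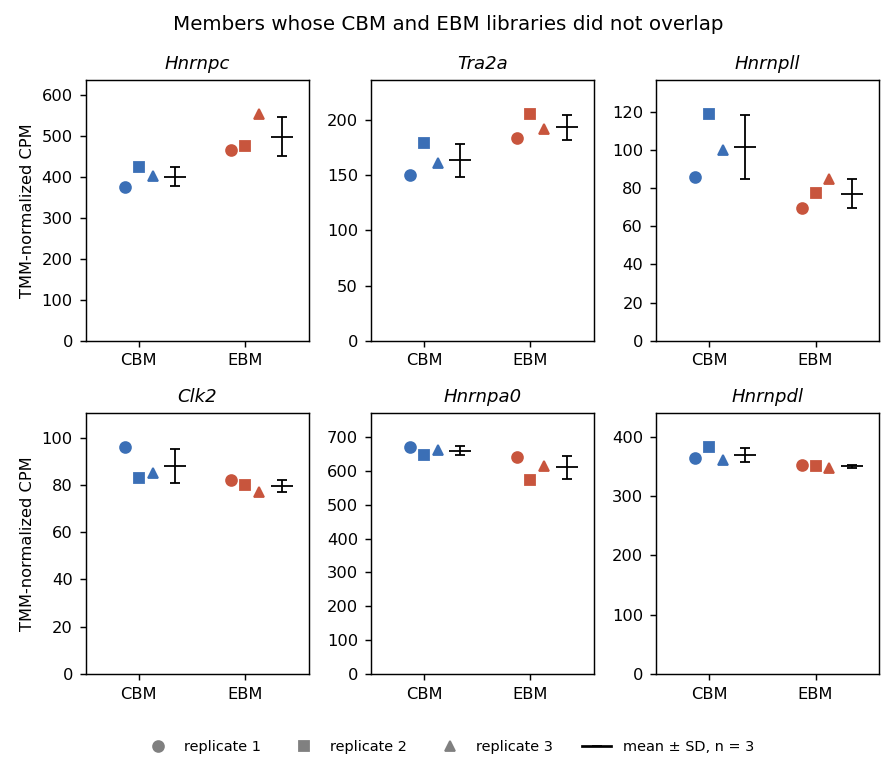
TMM-normalized CPM in each library for the 6 members whose CBM (blue) and EBM (red) libraries did not overlap, with the marker shape giving the replicate number and the bar the mean ± SD of 3 libraries. Hnrnpc and Tra2a are higher in EBM and the other 4 lower, with gaps between the closest libraries that are small beside the height of the axis.

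The difference of the group means was larger than the within-group SD for 13 of 40 members (32.5%), beside 33.5% of all genes tested, a share near the background. CBM 1 was the lowest CBM library for 27 of 40 members (67.5%) against 36.9% of all genes tested, and EBM 1 was the lowest EBM library for 25 of 40 (62.5%) against 33.6%. For the SR genes CBM 1 was lowest for 8 of 10, and so was EBM 1. CBM 2 was the highest CBM library for 24 of 40 members (60.0%) against 39.8% of all genes. In CBM 1 and EBM 1, where members were often lowest, Runx1 (722 and 616 CPM) and Cd34 (15.4 and 16.4 CPM) were highest within their regions. So was Runx1t1 (30.7 and 41.0 CPM). The other tested blast markers differed. Mpo was lowest of its region in CBM 1 (1.65 CPM), and Myb was lowest of its region in EBM 1 (268 CPM). Kit was higher in EBM 2 (239 CPM) than in EBM 1 (227 CPM). CBM 2 had the highest summed erythroid markers (8076 CPM) and granulocyte markers (237 CPM) of all 6 libraries. The summed erythroid markers were lowest of their region in CBM 1 (2545 CPM) and EBM 1 (3081 CPM). Hbb-bs and Hbb-bt, single genes of that sum, were instead lowest of their region in CBM 3 and EBM 3. So were the summed granulocyte markers, at 3.42 and 35.6 CPM. The part of these markers in the members' levels was not tested. The share of all counts that fell on members was lowest in EBM 1, at 1.59%, and highest in CBM 2, at 1.79%. Of the member reads, hnRNP genes took between 62.8% and 64.4%, SR genes between 23.7% and 24.8% and CLK genes between 3.71% and 4.99%.

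**Figure D4:**
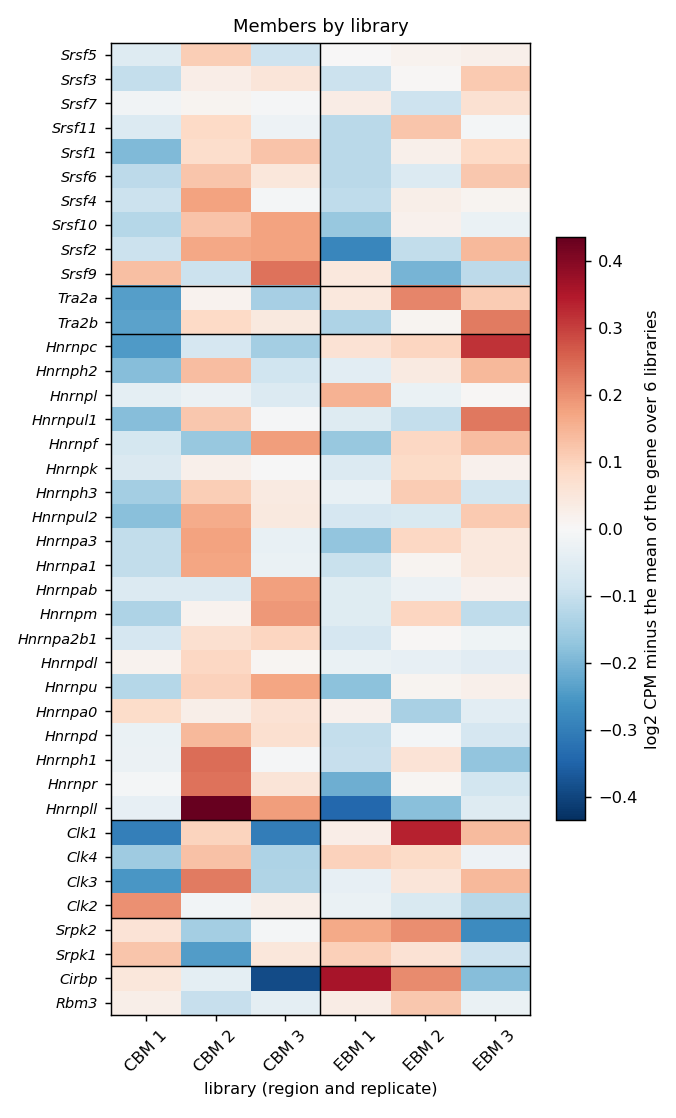
Log2 CPM of each tested member minus its mean over the 6 libraries, with a column for each library and black lines between roles and regions. Most members are below their mean in CBM 1 and EBM 1 and above it in CBM 2, and the colors of a row rarely split at the line between regions.

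Many members, though not all, have a feature of their annotation that the choice by name did not use. In the GENCODE M21 annotation, 29 of 40 tested members (72.5%) have a transcript marked for nonsense-mediated decay, while 30.1% of the 10791 tested protein-coding genes do. Such transcripts carry an early stop codon, and SR and hnRNP genes are known to splice their own RNA into them to limit their protein. The count was 9 of 10 for SR genes, 10 of 20 for hnRNP genes and 4 of 4 for CLK genes. A retained-intron transcript is annotated for 32 of 40 members (80.0%) and for 60.8% of tested protein-coding genes. The deposited counts are per gene and do not separate these forms from coding mRNA, so a shift between them in Clk1 or Srsf genes could not be identified. These shares describe the annotation, and they were not matched for expression level.

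The core spliceosome, the snRNP proteins and helicases that carry out splicing, was counted for comparison from a list of 50 genes, all tested. Here 45 of 50 estimates were above 0 and 5 below, with a median log2 fold change of 0.087, and 0 passed the adjusted threshold. At an unadjusted p under 0.05, 3 were higher, beside the background of 4.01%, and 0 lower, and 10 had every EBM library above every CBM library, beside 7.47%. The count above 0 depended on libraries: it was 28 of 50 without EBM 3 and 33 of 50 without CBM 1, and it was 39 of 50 with upper quartile factors. Bud31, a protein of the active spliceosome, measured 58.1, 66.2 and 58.1 CPM in CBM and 72.7, 82.1 and 92.8 CPM in EBM (log2 fold change 0.44 ± 0.12, SE; edgeR adjusted p 0.404). Sf1, which recognizes the branch point, had a log2 fold change of 0.23 ± 0.09 (SE), and Dhx38, a helicase of the second step, of 0.20 ± 0.08. The lowest by p-value were Ddx46 at -0.10 ± 0.09, Snrpf at -0.11 ± 0.17 and Sf3b5 at -0.03 ± 0.10.

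Of 56 other splicing regulators 53 were tested, and 25 estimates were above 0 and 28 below, with a median log2 fold change of -0.0096 and 0 past the adjusted threshold. Luc7l, a U1 snRNP partner, was at 0.31 ± 0.10 (SE) and Dyrk1a, a kinase related to the CLKs, at 0.22 ± 0.09. Esrp2, an epithelial splicing factor with 16 counts or fewer per library, was at -1.03 ± 0.49, and Mbnl1 and Mbnl2, the muscleblind proteins, were at -0.21 ± 0.11 and -0.29 ± 0.18. None of these 5 genes passed the adjusted threshold of edgeR, with adjusted p-values of 0.516 or higher.

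**Figure D5:**
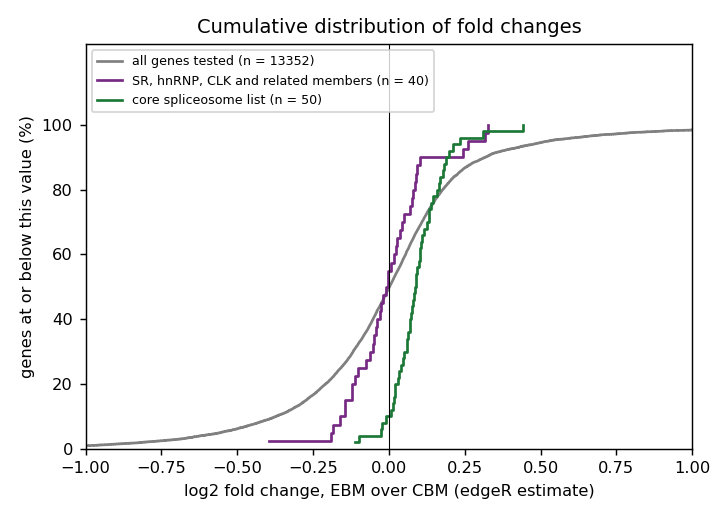
Cumulative share of genes against the log2 fold change of EBM over CBM for all 13352 genes tested (gray), the 40 tested members (purple) and the 50 core spliceosome genes (green), with values beyond 1 outside the axis. The members rise most steeply around 0, and the curve of the core spliceosome lies to the right of it with a median of 0.087.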

How the data were processed

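RNA-seq was analysed for 3 CBM and 3 EBM libraries. Libraries were directional and, per the study's methods, made after rRNA depletion (the labels give mRNA as the library type). The authors deposited raw counts per gene, not normalized, with a gene length per gene. The submitters' processing notes name HISAT2 2.0.5 and mm10, and the counting tool, its strand setting and the annotation are not given in the sources used here. Of the table's genes found in GENCODE M21 (GRCm38), 98.3% had the same coordinates.

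Genes were filtered with filterByExpr of edgeR 4.0.16 (R 4.3.3), which left 13352, normalized by TMM and tested with edgeR's quasi-likelihood F-test and Benjamini-Hochberg adjustment over all of them, without a block. The SE is the log2 fold change divided by the square root of F. For single values, 20 relabellings were enumerated on log2 CPM with a prior count of 2. Levels per length are CPM divided by the deposited length. Alternatives used other filters, size factors, DESeq2 1.42.0, limma-voom (limma 3.58.1), a replicate block, a loess length correction (span 0.3) and omission of each library. The scripts were tested on simulated data. Cell type markers and the other gene lists came from general knowledge, and 1 marker, Ahsp, was not matched.

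Every member is named, and values per library are given for the cold-inducible, CLK, SRPK and TRA2 genes, in each direction for the 3 SR and 3 hnRNP genes of smallest p, and for the most abundant per length. The members and lists were chosen with earlier results of these data known. Hnrnpa0, Hnrnpdl and Hnrnpa2b1, outside that rule, are given for their ranges or levels. Of the other splicing regulators, the 3 of smallest p in each direction were to be named, and 1 of these is not reported here.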

Additional observations from a re-analysis of the deposited data

How the results depend on the processing

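No member was called in any of the 15 alternatives, and the lowest adjusted p of a member was 0.315, with DESeq2. Over all genes DESeq2 called 190, the fit with no low count filter 40 and the length correction 1, where the main fit called 0. At an unadjusted p under 0.05, the members higher in EBM numbered 1 in the main fit, 2 with no low count filter, 2 with DESeq2, 2 with limma-voom and between 0 and 3 when 1 library was left out, with 0 without CBM 1 or CBM 3 and 3 without CBM 2. The members lower in EBM numbered 1 in the main fit, 0 with the length correction and between 0 and 1 when 1 library was left out, with 0 without CBM 2, CBM 3, EBM 1 or EBM 2. The median log2 fold change of the members ranged from -0.0739, without CBM 1, to 0.0273, without CBM 2. The cause of these shifts was not tested.

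Whether same-numbered libraries came from the same mouse is not stated. Their deviations correlated at 0.676, -0.204 and 0.203, which did not meet the criterion for pairing set here (over 0.1 in every pair) and does not settle the question. At an unadjusted p under 0.05, the fit with the replicate block gave 4 members higher (Hnrnpc, Clk1, Cirbp and Tra2a, with edgeR adjusted p-values of 0.474 or higher) and 1 lower, and the block with the length correction 4 and 0. Not every library correlated best with its own number.

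The sign held in all 15 alternatives for 20 members, among them Cirbp, Rbm3, Clk1, Clk2, Clk4, Tra2a, Hnrnpc and Hnrnpll, and the other 20 changed sign in at least 1. The main estimates of those were at most 0.093 from 0 on the log2 scale. An unadjusted p under 0.05 was reached by Hnrnpc in 12 of 15 alternatives, Hnrnpll in 9, Tra2a in 5, Clk1 in 4 and Cirbp in 3. With 3 libraries per region, log2 differences inside the intervals given could not be resolved.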

Other observations

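Rbm3 has an antisense gene, Rbm3os, which shares 94 exon bases with it and had 97, 127 and 74 counts in CBM and 41, 57 and 47 in EBM. Every EBM library lay below every CBM library, with a log2 fold change of -0.91 ± 0.28 (SE), an unadjusted p of 0.0158 and an edgeR adjusted p of 0.484. Its counts were 0.722% of those of Rbm3. The processed pseudogene Rbm3-ps held 1.91% as many counts as Rbm3, with a log2 fold change of 0.19 ± 0.14 (SE). Whether the counting kept the strands of Rbm3 and Rbm3os apart is not stated, so both values are uncertain. Rbm3os was chosen after its values were seen.

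Exons on the opposite strand overlapped 14 of the 41 members, in 16 pairs of genes. Beside Kmt2e and Srpk2, the pairs with the most shared bases were Srsf4 with Gm12992 (1532), Clk3 with Edc3 (1284) and Hnrnpab with Phykpl (809). Edc3 drew 6303 counts over the 6 libraries where Clk3 drew 14022, and Phykpl drew 3128 where Hnrnpab drew 59220.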
